A study of Homo sapiens with 22 samples.

Results

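JQ1 is a small molecule that occupies the bromodomains of the BET proteins, BRD2 and BRD3 among them, the pockets with which these proteins read acetylated lysines on histones. BET proteins help to recruit P-TEFb, the kinase that releases paused RNA polymerase II into productive elongation, and HEXIM1 holds P-TEFb inactive together with the 7SK RNA. Displacing BET proteins is known for lowering genes that depend on strong enhancers, inflammatory genes among them, and for raising HEXIM1 and a set of histone genes. The title of the series sets BET inhibition beside the m6A writer complex, in which METTL3 and METTL14 methylate adenosines of RNA with the help of WTAP.

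The libraries compared were 2 of MDA-MB-231 cells given 0.5 µM JQ1 for 3 days and 2 of the same cells given DMSO, the solvent, for 3 days. MDA-MB-231 is an established human breast cancer line, and the labels give its genotype as WT in every group used here. The same table holds 2 libraries each of cells given 0.5 µM Molib or 0.5 µM of a compound labelled I-BET151, also for 3 days, and the series has 22 libraries in all. Set beside them were 2 groups of other tables, each with its own controls. The first was a second experiment with 0.5 µM JQ1 against cells labelled CTRL, both for 3 days. The other was cells labelled shM3 against cells labelled B5, both kept for 2 to 3 months. Cells labelled shM3 had been infected with a lentivirus and carry a hairpin for the knockdown of METTL3. The label WT therefore does not mean unmodified cells there. All groups come from 1 line, and no label says that replicates were separate cultures; a p-value then measures only how far these libraries spread, which may be technical.

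Values are FPKM, fragments scaled to the length of the gene and to the size of the library. Of 60669 genes in the table, the 14936 at 1 FPKM or more in at least 2 of its 8 libraries were tested, and these are the genes described. The JQ1 columns carry a name that samples of the second experiment also have, and they were taken as the remaining JQ1 samples by elimination; they carry no number of their own, and the names library a and library b are used. Log2 fold changes are JQ1 minus DMSO differences of log2(FPKM + 1), a scale on which low genes seem to change less than they do, and folds are ratios of mean FPKM. Tests were made with limma, and the adjusted p (Benjamini-Hochberg, over the genes tested) has a threshold of 0.05.

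HEXIM1 and BRD2, which mark the response to BET inhibitors, went the way the label says. HEXIM1 (ENSG00000186834, hg38 chromosome 17, 45148502 to 45152101, plus strand, a gene of a single exon) stood at 73.8 and 76.7 FPKM in the JQ1 libraries and 26.5 and 29.4 in the DMSO libraries. The group means were 75.3 ± 2.05 and 27.9 ± 2.01 FPKM (SD, n = 2 each), a 2.69-fold rise (log2 fold change 1.4, SE 0.19, adjusted p = 0.0017). BRD2 (ENSG00000204256, hg38 chromosome 6, 32968660 to 32981505, plus strand) was at 224 and 215 FPKM with JQ1 and 64.9 and 64.6 with DMSO, 3.39-fold higher (log2 fold change 1.75, SE 0.08, adjusted p = 2.7e-05). In both genes the 2 groups lay far apart and the replicates close together. In the libraries labelled I-BET151, by contrast, HEXIM1 was at 10.3 and 6.37 FPKM, below DMSO, so in this gene they go against the direction of a BET inhibitor's label. Of the 10 genes reported to rise with BET inhibitors, 5 were called higher and 1 lower than DMSO there (median 1.03), TXNIP among the higher ones at 206 and 228 FPKM under the I-BET151 label and 56.5 and 50.0 with DMSO. They share the estimate of the spread with the JQ1 comparison, and counts over lists that move by over 1.5 times without them are given both ways.

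Pearson's r between libraries, over log2(FPKM + 1) of the genes tested, was 0.987 between the JQ1 libraries and 0.987 between the DMSO libraries, and 0.938 to 0.939 across the 2 groups. The FPKM of a library summed to 449833 and 453175 with JQ1 and to 448072 and 457281 with DMSO. The 10 highest genes took 9.50% and 9.49% of that sum with JQ1, against 7.02% and 7.09% with DMSO. Mitochondrial transcripts took 6.04% and 6.03% with JQ1, against 5.69% and 5.5% with DMSO. Markers of the line were present: the vimentin gene VIM was at 1388 and 1627 FPKM with JQ1 and 1458 and 1462 with DMSO (adjusted p = 0.83), and LGALS1, which encodes a galectin, at 1208 and 1243 with JQ1 and 1142 and 1208 with DMSO. SPARC, listed as a further marker of the line, stayed under the filter. So did the luminal markers ESR1, PGR, FOXA1, CDH1 and TFF3 and the blood cell markers PTPRC, CD3E, LYZ, SPI1 and HBB. CD3E and HBB were listed at 0 in all 4 libraries. Other members of these lists were expressed, and 7 of 12 luminal and 3 of 9 blood cell markers passed the filter. With DMSO, KRT19 was at 228 and 248 FPKM, KRT8 at 248 and 225, CD68 at 20.6 and 30.6 and LAPTM5 at 27.4 and 25.7. The files give no counts, so the depth is unknown. FPKM is relative to each library's own total, so a fall of all RNA together would not be seen.

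JQ1 changed 5238 of the 14936 genes, 35.1% of those tested. Of these, 2168 rose (14.5%) and 3070 fell (20.6%). Most changes were moderate: 431 genes (2.89%) rose and 884 (5.92%) fell by at least 2-fold on the log2 scale, and 55 rose and 69 fell by at least 4-fold. At 16-fold or more, 6 genes rose and 4 fell. The median change over all genes tested was -0.04 on the log2 scale, 0.68 among the genes that rose and -0.77 among those that fell. Both JQ1 libraries lay above both DMSO libraries for 5037 genes (33.7%) and below both for 5985 (40.1%). Leaving out any 1 of the 4 libraries left between 2854 and 3047 calls, and leaving the libraries labelled I-BET151 out of the fit gave 6199. These are bulk libraries, in which fewer cells that express a gene and less RNA per cell cannot be told apart.

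**Figure D1:**
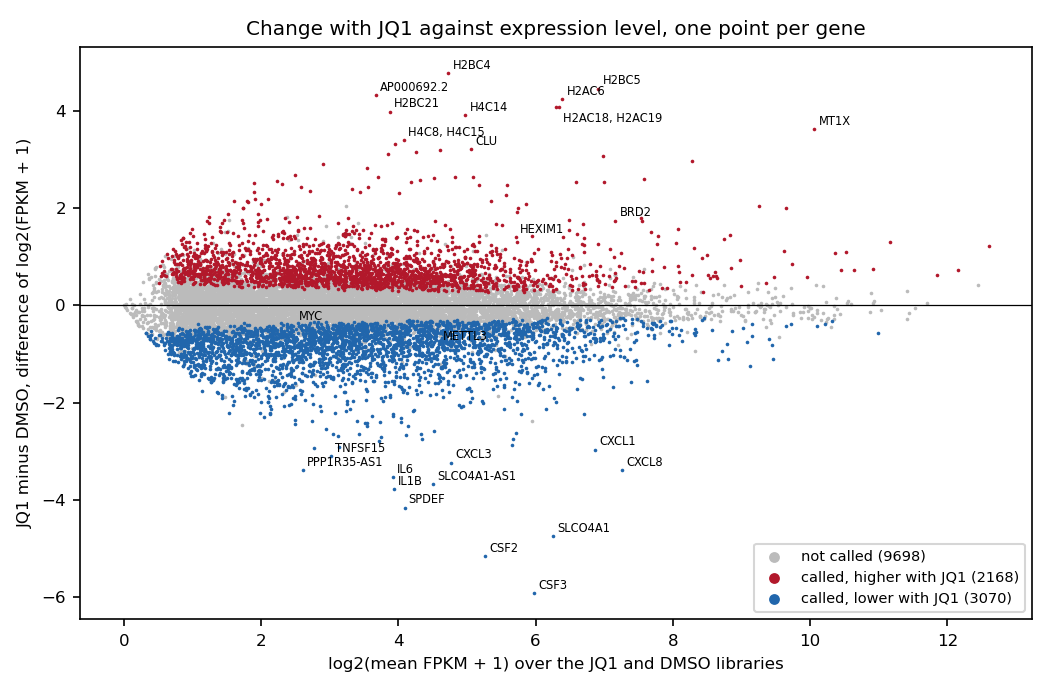
Change with JQ1 for each of the 14936 genes tested, as the JQ1 minus DMSO difference of log2(FPKM + 1), against log2(mean FPKM + 1) over the 4 libraries. Red points rose (2168), blue points fell (3070) and grey points did not pass; the histone genes and MT1X stand at the top and the cytokine genes CSF3 and CSF2 at the bottom.

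Genes that rose by at least 2-fold were shorter and more often of a single exon than all genes tested. In the GENCODE annotation 16.3% of them had 1 exon, against 7.56% of all genes tested and 2.84% of the genes that fell by at least 2-fold. Their median span was 14.9 kb, against 26.8 kb over all genes tested and 24.2 kb among the genes that fell by at least 2-fold. This did not hold over all 2168 genes that rose, whose median span was 30.8 kb and of which 7.81% had 1 exon. HEXIM1 is among the genes of a single exon that rose by at least 2-fold. Its promoter is printed because HEXIM1 is the standard readout of the drug. It is taken, like the other promoters below, from RefSeq (GRCh38.p14, 250 bases before to 50 after the start of the gene), with the motif matches named beneath each sequence in capitals:
HEXIM1 promoter, chr17:45148225-45148524, plus strand: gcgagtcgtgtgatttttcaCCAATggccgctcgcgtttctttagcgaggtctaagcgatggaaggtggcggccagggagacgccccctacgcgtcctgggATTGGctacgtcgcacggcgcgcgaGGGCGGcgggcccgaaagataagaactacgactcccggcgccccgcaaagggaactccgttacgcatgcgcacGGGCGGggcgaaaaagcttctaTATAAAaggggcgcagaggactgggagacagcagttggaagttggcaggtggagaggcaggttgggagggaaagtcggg
The capitals mark, from left to right, CCAAT boxes at 230 and 149 bases before the start (CCAAT and its reverse complement), GC boxes (GGGCGG) at 124 and 51, and a TATA box (TATAAA) at 29. Such a match describes the sequence and is not shown to be a site in use.

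Of 10 genes reported to rise with BET inhibitors, 10 rose, with a median of 2.62 on the log2 scale against -0.04 over all genes; 8 of them were at 1 FPKM or more in all 4 libraries, and those 8 rose too. The list was drawn up from knowledge of these drugs with earlier results of these data known, so its direction is not independent evidence. TXNIP, an arrestin that restrains glucose uptake, was at 328 and 328 FPKM with JQ1 and 56.5 and 50.0 with DMSO (log2 fold change 2.60, SE 0.10, adjusted p = 1.3e-05). SERPINI1, which encodes the protease inhibitor neuroserpin, was at 20.7 and 22.2 FPKM with JQ1 and 2.35 and 2.88 with DMSO (log2 fold change 2.64, SE 0.15, adjusted p = 5.5e-05). The other members were BRD2, HEXIM1, ZCCHC24 and the histone genes described next. BRD3, which encodes another BET protein, was at 11.3 and 12 FPKM with JQ1 and 12.8 and 12.9 with DMSO (adjusted p = 0.4). BRDT stayed under the filter.

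Of 12 genes reported to fall with BET inhibitors, 8 could be tested and 7 fell (median -0.99). A gene can pass the filter through the group where it is high. Of the 5 at 1 FPKM or more in all 4 libraries, 4 fell. MYC, the growth-promoting transcription factor often named as a target of JQ1, was the exception. It stood at 5.93 and 3.43 FPKM with JQ1 and 5.25 and 3.87 with DMSO, so the groups overlapped (0.01 on the log2 scale, SE 0.24, adjusted p = 0.99). Its sign turned without DMSO replicate 2 (-0.17) or without JQ1 library a (-0.32), with no call either way. LIF, a cytokine of the interleukin-6 family, was at 2.53 and 2.69 FPKM with JQ1 and 17.6 and 18.8 with DMSO (log2 fold change -2.41, SE 0.11, adjusted p = 2.4e-05). E2F2, an S phase transcription factor, was at 0.198 and 0.0732 FPKM with JQ1 and 3.30 and 3.18 with DMSO (log2 fold change -1.90, SE 0.14, adjusted p = 0.00017). The interleukin-7 receptor gene IL7R was at 0.0281 and 0.160 with JQ1 and 1.01 and 1.41 with DMSO (log2 fold change -1.01, SE 0.15, adjusted p = 0.0028). E2F2 and IL7R are not among the 5 genes at 1 FPKM or more in all 4 libraries.

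**Figure D2:**
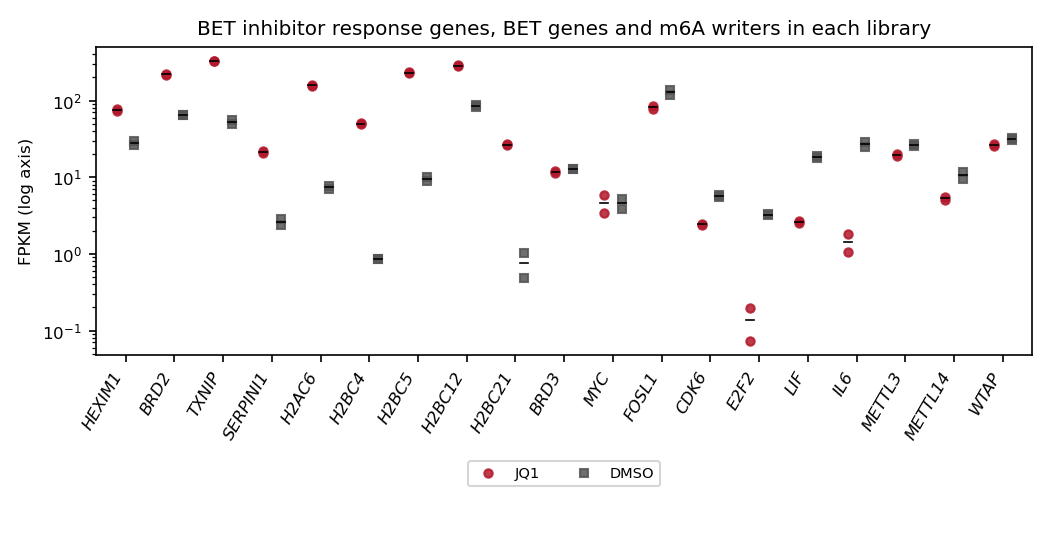
FPKM on a log axis in each of the 2 JQ1 (red circles) and 2 DMSO (grey squares) libraries, with a bar at each mean, for genes reported to respond to BET inhibitors, the BET genes and the m6A writers. The histone genes, HEXIM1, BRD2, TXNIP and SERPINI1 are higher with JQ1, E2F2, LIF and IL6 are lower, and the groups overlap for MYC.

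Clustered histone genes, which encode the histones packed onto new DNA, gave 9 of the 12 highest rises. Of 59 genes in the list 28 could be tested, 21 rose and none fell (median 2.18). Since a gene can pass the filter through the group where it is high, the 17 at 1 FPKM or more in all 4 libraries are given apart: 12 of them rose. H2BC5 (ENSG00000158373, hg38 chromosome 6, 26158146 to 26171349, plus strand) was at 234 and 226 FPKM with JQ1 and 8.81 and 10.2 with DMSO, 24.2-fold higher (log2 fold change 4.46, SE 0.10, adjusted p = 1.4e-06). H2AC6 (ENSG00000180573, hg38 chromosome 6, 26124145 to 26139116, plus strand) was at 155 and 161 FPKM with JQ1 and 7.75 and 7.10 with DMSO, 21.3-fold higher (log2 fold change 4.24, SE 0.11, adjusted p = 1.9e-06). The groups lay more than 10-fold apart in both genes, and the replicates close together. H2BC4, whose model lies head to head with that of H2AC6, was at 51.4 and 48.9 FPKM with JQ1 and 0.863 and 0.851 with DMSO (log2 fold change 4.78, SE 0.13, adjusted p = 2e-06), and H2BC21 at 26.8 and 26.4 with JQ1 and 0.480 and 1.03 with DMSO (log2 fold change 3.99, SE 0.16, adjusted p = 1.6e-05). H1-2, a linker histone, was at 217 and 216 FPKM with JQ1 and 34.6 and 38.2 with DMSO (log2 fold change 2.54, SE 0.11, adjusted p = 1.9e-05).

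Some histone genes are near-identical copies, so reads may have been split between them. H2AC18 stood at 152 and 152 FPKM with JQ1 and 8.20 and 7.87 with DMSO, and its copy H2AC19 at 148 and 148 with JQ1 and 7.99 and 7.68 with DMSO. The H4 genes H4C14 (57.1 and 59.2 FPKM with JQ1, 2.73 and 3.05 with DMSO), H4C15 (26.8 and 27.4 with JQ1 and 1.3 and 2.46 with DMSO) and H4C8 (31.6 and 28.2 with JQ1 and 1.22 and 2.81 with DMSO) were 20.1-fold, 14.4-fold and 14.9-fold higher with JQ1 (adjusted p = 1.4e-06, 8.5e-05 and 0.00013). The 7 tested members that did not pass included H4C3 (0.30), H1-4 (0.37) and H2AC17 (-0.13 on the log2 scale), so the rise did not take in the whole family. Most histone mRNAs of this kind end without a poly(A) tail, and the protocols in the labels name poly(A) minus and plus fractions without saying which samples had which. Among 7 nuclear and structured RNAs tested, 3 rose and none fell (42.9% called, beside 35.1% over all genes). MALAT1, a nuclear RNA, was at 7.58 and 6.27 FPKM with JQ1 and 1.08 and 1.46 with DMSO (log2 fold change 1.80, SE 0.29, adjusted p = 0.0034). NEAT1, the scaffold of paraspeckles, was at 14.2 and 23.5 with JQ1 and 1.71 and 3.69 with DMSO (log2 fold change 2.44, SE 0.37, adjusted p = 0.0027). RN7SK was at 2.75 and 2.96 with JQ1 and 2.08 and 1.78 with DMSO (adjusted p = 0.1). The part of the RNA fraction in the histone result was not tested.

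The H2AC6 promoter is shown because it holds the elements typical of this family:
H2AC6 promoter, chr6:26123922-26124221, plus strand: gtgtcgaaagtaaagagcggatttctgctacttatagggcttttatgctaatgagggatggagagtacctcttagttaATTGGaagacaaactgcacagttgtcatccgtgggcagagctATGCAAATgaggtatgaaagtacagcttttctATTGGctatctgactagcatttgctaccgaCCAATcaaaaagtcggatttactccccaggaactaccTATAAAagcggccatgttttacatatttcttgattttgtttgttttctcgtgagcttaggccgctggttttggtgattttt
Capitals mark CCAAT boxes at 172, 98 and 68 bases before the start, an octamer (ATTTGCAT, here as its reverse complement) at 130 and a TATA box at 31. The start of H2BC4 lies within this window on the other strand. Of the 27 histone genes of the list with a promoter in the table, 81.5% held CCAAT, 70.4% TATAAA and 40.7% the octamer on either strand. Over the 10290 genes tested that had a promoter, these shares were 37.2%, 5.7% and 1.3%.

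Genes outside the histones rose by like amounts. MT1X (ENSG00000187193, hg38 chromosome 16, 56682424 to 56684196, plus strand), a metallothionein that binds zinc and copper, was at 1981 and 1967 FPKM with JQ1 and 162 and 154 with DMSO, 12.5-fold higher (log2 fold change 3.64, SE 0.09, adjusted p = 1.4e-06). CLU, which encodes the secreted chaperone clusterin, was at 57.8 and 60.6 FPKM with JQ1 and 6.03 and 4.92 with DMSO (log2 fold change 3.22, SE 0.18, adjusted p = 5.5e-05). The unnamed gene AP000692.2 on chromosome 21 was at 23.2 and 23.5 FPKM with JQ1 and 0.0705 and 0.369 with DMSO (log2 fold change 4.33, SE 0.16, adjusted p = 1.3e-05). PEG10, an imprinted gene derived from a retrotransposon, was at 33.6 and 32.9 with JQ1 and 2.38 and 3.41 with DMSO (log2 fold change 3.15, SE 0.20, adjusted p = 8.9e-05). TUBB3, a beta-tubulin best known from neurons, was at 196 and 252 with JQ1 and 19.1 and 33.8 with DMSO (log2 fold change 3.08, SE 0.26, adjusted p = 0.00026). The JQ1 libraries were above the DMSO libraries in each of these genes.

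Cytokine genes gave the 2 deepest falls, and chemokine genes were among the 12 deepest. Of 44 genes in a list of NF-kB targets, cytokines and chemokines, 42 could be tested, 27 fell and none rose (median -0.95; 1 rose without the libraries labelled I-BET151); of the 32 at 1 FPKM or more in all 4 libraries, 21 fell. CSF3 (ENSG00000108342, hg38 chromosome 17, 40015361 to 40017813, plus strand), which encodes the granulocyte growth factor G-CSF, was at 1.03 and 1.08 FPKM with JQ1 and 127 and 119.9 with DMSO, 117-fold lower (log2 fold change -5.92, SE 0.12, adjusted p = 1.4e-06). CSF2 (ENSG00000164400, hg38 chromosome 5, 132073790 to 132076170, plus strand), which encodes GM-CSF, was at 1.05 and 1.13 FPKM with JQ1 and 71.3 and 76.4 with DMSO, 67.8-fold lower (log2 fold change -5.16, SE 0.11, adjusted p = 1.4e-06). Transcripts of both growth factors were thus abundant in DMSO cells and near 1 FPKM in JQ1 cells. IL1B, the gene of the inflammatory cytokine interleukin-1 beta, was at 0.998 and 1.16 with JQ1 and 27.2 and 27.6 with DMSO (log2 fold change -3.77, SE 0.15, adjusted p = 1.6e-05). IL6, the gene of interleukin-6, was at 1.83 and 1.06 with JQ1 and 29.1 and 24.6 with DMSO (log2 fold change -3.52, SE 0.20, adjusted p = 6e-05). TNFSF15, a cytokine of the TNF family, was at 0.841 and 0.530 with JQ1 and 13.8 and 13.1 with DMSO (log2 fold change -3.11, SE 0.13, adjusted p = 1.9e-05). All of these lay apart from DMSO by more than 10-fold.

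The chemokines that draw neutrophils fell as well, by smaller folds than the cytokines above. CXCL8 (ENSG00000169429, hg38 chromosome 4, 73740506 to 73743716, plus strand), the gene of interleukin-8, was at 26.2 and 25.5 FPKM with JQ1 and 275 and 283 with DMSO, 10.8-fold lower (log2 fold change -3.38, SE 0.10, adjusted p = 2.9e-06). CXCL1 (ENSG00000163739, hg38 chromosome 4, 73869393 to 73871242, plus strand) was at 27.4 and 23.9 FPKM with JQ1 and 207 and 206 with DMSO, 8.05-fold lower (log2 fold change -2.96, SE 0.09, adjusted p = 5e-06). Its close relative CXCL3, with which it may share reads, was at 4.38 and 4.10 with JQ1 and 49.8 and 46.8 with DMSO (log2 fold change -3.23, SE 0.14, adjusted p = 1.8e-05). The promoters of CXCL8 and CXCL1 are given to show the NF-kB-like sites (GGNNTTTCC) in this group:
CXCL8 promoter, chr4:73740319-73740618, plus strand: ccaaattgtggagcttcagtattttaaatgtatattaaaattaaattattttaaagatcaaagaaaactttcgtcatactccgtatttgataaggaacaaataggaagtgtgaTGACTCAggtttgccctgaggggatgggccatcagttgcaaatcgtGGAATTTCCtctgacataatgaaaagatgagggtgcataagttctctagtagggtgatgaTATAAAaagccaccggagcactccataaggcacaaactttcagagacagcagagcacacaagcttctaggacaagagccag
CXCL1 promoter, chr4:73869143-73869442, plus strand: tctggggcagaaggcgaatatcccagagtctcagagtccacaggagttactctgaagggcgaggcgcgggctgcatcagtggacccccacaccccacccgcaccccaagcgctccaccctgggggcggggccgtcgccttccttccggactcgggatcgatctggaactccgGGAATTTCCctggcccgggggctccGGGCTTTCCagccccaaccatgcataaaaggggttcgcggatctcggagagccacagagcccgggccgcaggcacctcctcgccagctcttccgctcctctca
In CXCL8 the capitals mark an AP-1 site (TGANTCA) at 137 bases before the start, an NF-kB-like site at 91 and a TATA box at 31, and in CXCL1 NF-kB-like sites at 78 and 53. An NF-kB-like match stood on either strand in 53.1% of the 32 promoters of this list, against 6.8% over all 10290 and 7.5% among the genes that fell by at least 2-fold. The list was drawn up to hold NF-kB targets, so its share describes the list and not the effect of JQ1. Of the NF-kB subunits and inhibitors, NFKB1 was at 12.2 and 11.9 FPKM with JQ1 and 23.9 and 26.7 with DMSO (log2 fold change -1.01, SE 0.10, adjusted p = 0.00051), RELA was at 37.3 and 34.9 with JQ1 and 37.2 and 39.5 with DMSO (adjusted p = 0.8), and NFKBIA, the inhibitor IκBα, at 57.1 and 89.8 with JQ1 and 63.4 and 77.1 with DMSO (adjusted p = 0.94).

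**Figure D3:**
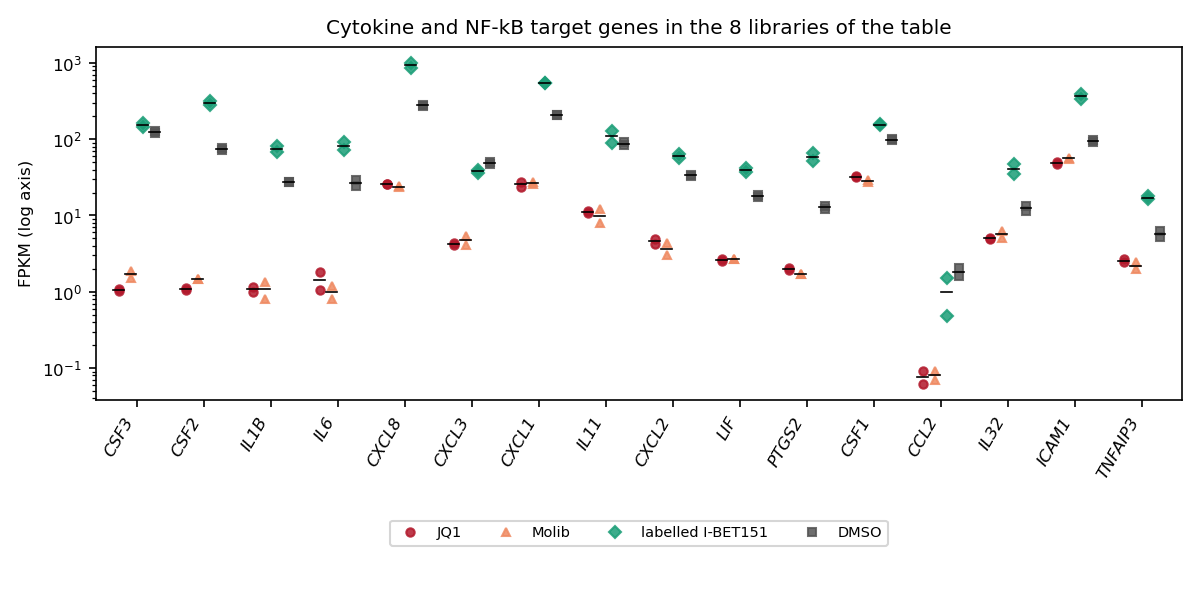
FPKM on a log axis of 16 cytokine and NF-kB target genes in the 8 libraries of the table: JQ1 (red circles), Molib (orange triangles), the libraries labelled I-BET151 (green diamonds) and DMSO (grey squares), with a bar at each mean. JQ1 and Molib lie together and, for most genes, below DMSO, as for CSF3 at 1.03 and 1.08 FPKM with JQ1 against 127 and 119.9 with DMSO, while the libraries labelled I-BET151 lie above DMSO for most genes.

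Deep falls were also seen outside the cytokines. SLCO4A1 (ENSG00000101187, hg38 chromosome 20, 62642445 to 62685785, plus strand), a transporter of organic anions such as thyroid hormone, was at 4.55 and 4.43 FPKM with JQ1 and 155 and 136 with DMSO, 32.5-fold lower (log2 fold change -4.74, SE 0.14, adjusted p = 3.4e-06). The antisense gene inside it, SLCO4A1-AS1, was at 2.35 and 2.2 with JQ1 and 37.8 and 44.3 with DMSO (log2 fold change -3.68, SE 0.19, adjusted p = 4.3e-05); whether the counting used strand is not given in the sources used here, so reads of the pair cannot be told apart. SPDEF, an ETS transcription factor of epithelial cells, was at 0.673 and 0.951 FPKM with JQ1 and 30.7 and 31.8 with DMSO (log2 fold change -4.16, SE 0.16, adjusted p = 1.3e-05). PPP1R35-AS1, another antisense gene, was at 0.133 FPKM in JQ1 library a, listed at 0 in library b, and at 10.9 and 9.41 with DMSO (-3.38 on the log2 scale, adjusted p = 2.1e-05); without either DMSO library it was under the filter.

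Most cell cycle genes fell. Of 47 S phase genes, which copy the DNA, 45 fell and none rose (median -0.97), and of 57 genes of G2/M and mitosis 46 fell and none rose (median -1.03). With 1 library left out in turn, 36 to 39 S phase genes and 42 to 45 mitotic genes fell. The replicative helicase subunits MCM5 and MCM2 both fell. MCM5 was at 10.8 and 11 FPKM with JQ1 and 48.8 and 48.5 with DMSO (log2 fold change -2.06, SE 0.09, adjusted p = 2.4e-05), and MCM2 at 19 and 17.9 with JQ1 and 63.0 and 62.4 with DMSO (log2 fold change -1.71, SE 0.09, adjusted p = 5.1e-05). FEN1, the flap endonuclease, was at 22.6 and 23.3 with JQ1 and 75.5 and 79.5 with DMSO (log2 fold change -1.71, SE 0.10, adjusted p = 8.4e-05). E2F1, which drives entry into S phase, was at 10.2 and 11.9 with JQ1 and 39.2 and 41.0 with DMSO (log2 fold change -1.77, SE 0.12, adjusted p = 0.00013). The mitotic genes fell by a like amount. CDCA8, a subunit of the chromosomal passenger complex, was at 13.6 and 14.6 with JQ1 and 51.0 and 50.1 with DMSO (log2 fold change -1.77, SE 0.10, adjusted p = 6e-05). AURKA, the mitotic kinase Aurora A, was at 26.3 and 24.5 with JQ1 and 86.8 and 73.8 with DMSO (log2 fold change -1.62, SE 0.11, adjusted p = 0.00012). The spindle factor TPX2 was at 35.2 and 33.9 with JQ1 and 113 and 108 with DMSO (log2 fold change -1.65, SE 0.11, adjusted p = 0.00012), and the kinesin KIF2C at 25.8 and 24.6 with JQ1 and 77.2 and 76.7 with DMSO (log2 fold change -1.57, SE 0.11, adjusted p = 0.00013). These named genes, chosen for their small adjusted p, were around 3 to 4.5-fold lower, further than the median gene of either list. MCM4 and POLE were the S phase genes that did not pass (both below 0 on the log2 scale).

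CDCA8 and MCM2 show motifs that were more frequent in these lists than over all promoters:
CDCA8 promoter, chr1:37692266-37692565, plus strand: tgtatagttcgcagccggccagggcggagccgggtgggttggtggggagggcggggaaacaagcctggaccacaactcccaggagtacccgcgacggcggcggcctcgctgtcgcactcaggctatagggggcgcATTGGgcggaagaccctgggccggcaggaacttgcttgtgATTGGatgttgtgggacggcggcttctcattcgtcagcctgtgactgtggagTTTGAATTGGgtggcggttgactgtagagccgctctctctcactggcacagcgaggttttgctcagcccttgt
MCM2 promoter, chr3:127598161-127598460, plus strand: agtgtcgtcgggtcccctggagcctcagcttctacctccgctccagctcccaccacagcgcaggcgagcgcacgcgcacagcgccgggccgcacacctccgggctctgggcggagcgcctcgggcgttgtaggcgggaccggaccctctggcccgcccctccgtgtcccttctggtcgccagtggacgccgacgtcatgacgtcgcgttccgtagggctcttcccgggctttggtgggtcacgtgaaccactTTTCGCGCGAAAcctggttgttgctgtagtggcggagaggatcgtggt
In CDCA8 the capitals mark CCAAT boxes, read on the other strand, at 115, 75 and 18 bases before the start, and a CHR element (TTTGAA) at 23 that runs into the last of them. In MCM2 they mark an E2F-like site (TTTNGCGC), which overlaps its own match on the other strand and begins 3 bases into the gene. The CHR element was in 68.8% of 48 mitotic promoters, against 9.5% over all 10290, and the E2F-like site in 35.9% of 39 S phase promoters, against 3.1%. Among the genes that fell by at least 2-fold these shares were 15.2% and 3.0%. The lists were chosen by function, so their shares describe the lists and not the effect of JQ1.

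DNA repair and the G1 regulators moved in part. Among 34 recombination and DNA repair genes there were 15 falls and no rise (median -0.40), with 44.1% called beside 35.1% over all genes. FANCD2, of the Fanconi anaemia pathway, was at 2.65 and 3.15 FPKM with JQ1 and 8.22 and 8.32 with DMSO (log2 fold change -1.25, SE 0.15, adjusted p = 0.0012). FANCG of the same pathway was 2.37-fold lower (adjusted p = 0.00079), and RMI2, a partner of the Bloom helicase, was 2.32-fold lower (adjusted p = 0.00093). Among 16 G1 cyclins, kinases and inhibitors, 2 rose and 5 fell (43.8% called, beside 35.1% over all genes). The inhibitors went both ways: CDKN2C was at 11.5 and 12.7 with JQ1 and 36.2 and 32.1 with DMSO (log2 fold change -1.42, SE 0.13, adjusted p = 0.00039), while CDKN2B was at 2.2 and 2.21 with JQ1 and 0.354 and 0.364 with DMSO (log2 fold change 1.24, SE 0.13, adjusted p = 0.00068) and CDKN1C at 8.18 and 9.03 with JQ1 and 3.83 and 3.23 with DMSO (log2 fold change 1.09, SE 0.13, adjusted p = 0.0011). CDK2, the S phase kinase, was at 16 and 15.8 with JQ1 and 34.3 and 32.8 with DMSO (log2 fold change -1.03, SE 0.12, adjusted p = 0.00084).

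Of the 8 m6A writer genes, which the title names, 2 fell, a share of 25% beside 20.6% called lower over all genes; none passed without JQ1 library b. All 8 had negative log2 values (median -0.37). METTL3 was at 20.1 and 19.2 FPKM with JQ1 and 25.4 and 27.2 with DMSO; the JQ1 libraries were the lower ones, but the difference did not pass (-0.40 on the log2 scale, SE 0.14, adjusted p = 0.062). It passed with JQ1 and DMSO fitted alone (adjusted p = 0.019) and without the libraries labelled I-BET151 (0.013). METTL14 was at 5.6 and 5.07 with JQ1 and 11.6 and 9.59 with DMSO (log2 fold change -0.87, SE 0.21, adjusted p = 0.019), which passed in no fit with 1 of the 4 libraries left out (adjusted p up to 0.10) or with no filter on low values (0.052). WTAP was at 25.4 and 27.3 with JQ1 and 30.7 and 32.8 with DMSO (-0.26, adjusted p = 0.092). CBLL1, which encodes the subunit HAKAI, was at 3.99 and 3.33 with JQ1 and 7.15 and 6.85 with DMSO (log2 fold change -0.78, SE 0.16, adjusted p = 0.0083), lost without JQ1 library b (adjusted p = 0.056). Of 15 erasers and readers of m6A, 2 rose and 6 fell (1 and 3 to 5 with 1 library left out). Calls took 53.3% of the erasers and readers, beside 35.1% over all genes. The reader IGF2BP3 was at 6.05 and 7.92 with JQ1 and 17.7 and 19.7 with DMSO (log2 fold change -1.31, SE 0.16, adjusted p = 0.0013), and IGF2BP1 at 4.24 and 3.98 with JQ1 and 7.40 and 7.57 with DMSO (log2 fold change -0.73, SE 0.11, adjusted p = 0.0031). RBMX, an RNA-binding protein, was 1.84-fold lower (adjusted p = 0.0041), and the demethylase ALKBH5 1.4-fold higher (adjusted p = 0.0047).

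In the transcription machinery the share of genes called was near that over all genes, 35.1%: 34.4% of P-TEFb, 7SK and elongation genes, 31.6% of polymerase II genes and general factors, and 32.3% of Mediator genes. Of 32 genes of P-TEFb, the 7SK complex and elongation factors 8 rose and 3 fell (4 to 5 and 2 with 1 library left out), and of 38 encoding RNA polymerase II subunits and general factors 8 rose and 4 fell (5 to 6 and 0 to 2; 8 lower without the libraries labelled I-BET151). POLR2A, the largest polymerase subunit, was at 114 and 117 FPKM with JQ1 and 58.6 and 57.8 with DMSO (log2 fold change 0.98, SE 0.09, adjusted p = 0.00033). TAF12, a subunit of TFIID, was at 24.9 and 25.3 with JQ1 and 7.81 and 7.80 with DMSO (log2 fold change 1.57, SE 0.14, adjusted p = 0.00033), and TAF9 and TAF7 of the same complex were 1.79-fold and 1.43-fold higher (adjusted p = 0.0012 and 0.0046). CTR9, of the PAF complex, was at 41.6 and 40.0 with JQ1 and 21.2 and 19.3 with DMSO (log2 fold change 0.98, SE 0.12, adjusted p = 0.0013), and AFF4, the scaffold of the super elongation complex, at 25.1 and 27.0 with JQ1 and 13.9 and 12.7 with DMSO (log2 fold change 0.92, SE 0.13, adjusted p = 0.0024). SSRP1, of the histone chaperone FACT, went the other way, at 79.1 and 75.4 with JQ1 and 173 and 164 with DMSO (log2 fold change -1.11, SE 0.10, adjusted p = 0.00032). The P-TEFb kinase CDK9 was at 30.5 and 27.1 with JQ1 and 32.1 and 31.7 with DMSO (adjusted p = 0.47). Of 31 Mediator genes 3 rose and 7 fell, among them MED24 (2.26-fold lower, adjusted p = 0.00024), MED30 (2.57-fold lower, 0.00032) and MED9 (1.76-fold lower, 0.0031), while MED20 was 1.80-fold higher (0.0022).

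In the MYC network 2 of 11 genes rose and 2 fell (36.4% called, near the 35.1% over all genes), with 1 and 0 to 3 when 1 library was left out. MXD4, a repressor that competes with MYC for its partner MAX, was at 62.5 and 55.6 FPKM with JQ1 and 26.9 and 28.9 with DMSO (log2 fold change 1.05, SE 0.11, adjusted p = 0.0005). MXD3 was at 12.7 and 12.1 with JQ1 and 25.2 and 27.6 with DMSO (log2 fold change -1.03, SE 0.21, adjusted p = 0.0088), lost without DMSO replicate 2 (adjusted p = 0.056). MLX (1.61-fold lower, adjusted p = 0.0087) was lost without JQ1 library a or DMSO replicate 2 (adjusted p up to 0.056), and MGA (1.60-fold higher, 0.026) without any 1 of the 4 libraries (up to 0.13). Of 49 MYC targets and nucleolar genes 4 rose and 11 fell (30.6% called; median -0.21), with 2 to 3 and 7 when 1 library was left out and 18 lower without the libraries labelled I-BET151. The polyamine enzyme ODC1 was at 225 and 242 with JQ1 and 148 and 139 with DMSO (log2 fold change 0.70, SE 0.09, adjusted p = 0.0016) and the nucleolar NPM1 at 1204 and 1169 with JQ1 and 792 and 795 with DMSO (log2 fold change 0.58, SE 0.09, adjusted p = 0.0032), while TCOF1, a factor of ribosomal RNA synthesis, was at 29.9 and 28.7 with JQ1 and 57.3 and 56.8 with DMSO (log2 fold change -0.94, SE 0.14, adjusted p = 0.0023). GAR1, of the H/ACA ribonucleoproteins, was 1.86-fold lower (adjusted p = 0.0032). Cytosolic ribosomal protein genes were called in 12.7% of cases, well under the 35.1% over all genes. Of 79 cytosolic ribosomal protein genes 1 rose and 9 fell, with 0 to 1 and 1 to 2 when 1 library was left out, and 5 and 25 without the libraries labelled I-BET151. RPS14 was 1.44-fold lower (adjusted p = 0.0039); RPL34 (1.34-fold lower), RPSA (1.26-fold) and RPL35 (1.49-fold) were called (adjusted p = 0.013, 0.021 and 0.021) but lost without JQ1 library a, JQ1 library b or DMSO replicate 2 (up to 0.093, 0.12 and 0.13), RPSA and RPL35 also without DMSO replicate 1. Of 15 mitochondrial transcripts MT-RNR2, a ribosomal RNA of the organelle, rose 1.68-fold (adjusted p = 0.002) and none fell; without the libraries labelled I-BET151 2 rose and 1 fell. SNHG1, a host of small nucleolar RNAs, was 1.24-fold higher (adjusted p = 0.044), lost without any 1 of the 4 libraries (up to 0.20).

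Interferon genes split, with more falling, and 52.1% were called beside 35.1% over all genes. Of 48 tested 5 rose and 20 fell (median -0.31), and 1 to 3 rose and 12 to 13 fell with 1 library left out. Of the 39 at 1 FPKM or more in all 4 libraries, 5 rose and 16 fell. OAS3, an antiviral synthetase, was at 1.63 and 1.84 FPKM with JQ1 and 7.55 and 8.67 with DMSO (log2 fold change -1.73, SE 0.13, adjusted p = 0.00017), and its relative OASL at 1.37 and 1.45 with JQ1 and 6.62 and 6.62 with DMSO (log2 fold change -1.66, SE 0.12, adjusted p = 0.00017). IFITM1, which blocks viral entry, was 2.42-fold lower (adjusted p = 0.00028). IRF7, a transcription factor that induces interferon genes, was at 36.7 and 38.7 with JQ1 and 12.2 and 10.5 with DMSO (log2 fold change 1.65, SE 0.10, adjusted p = 9.6e-05), in the opposite direction. Of 27 antigen presentation genes 11 fell and none rose (40.7% called; median -0.35; 5 to 7 fell with 1 library left out, and 1 rose without the libraries labelled I-BET151). The immunoproteasome subunit PSMB8 was at 17 and 18.4 with JQ1 and 40.8 and 42.1 with DMSO (log2 fold change -1.18, SE 0.10, adjusted p = 0.00024). CTSS, a protease that trims the invariant chain, was 3.02-fold lower (adjusted p = 0.00043), that chain's gene CD74 1.42-fold lower (0.004), and TAPBP, a loading factor of class I molecules, 1.46-fold lower (0.0047).

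**Figure D4:**
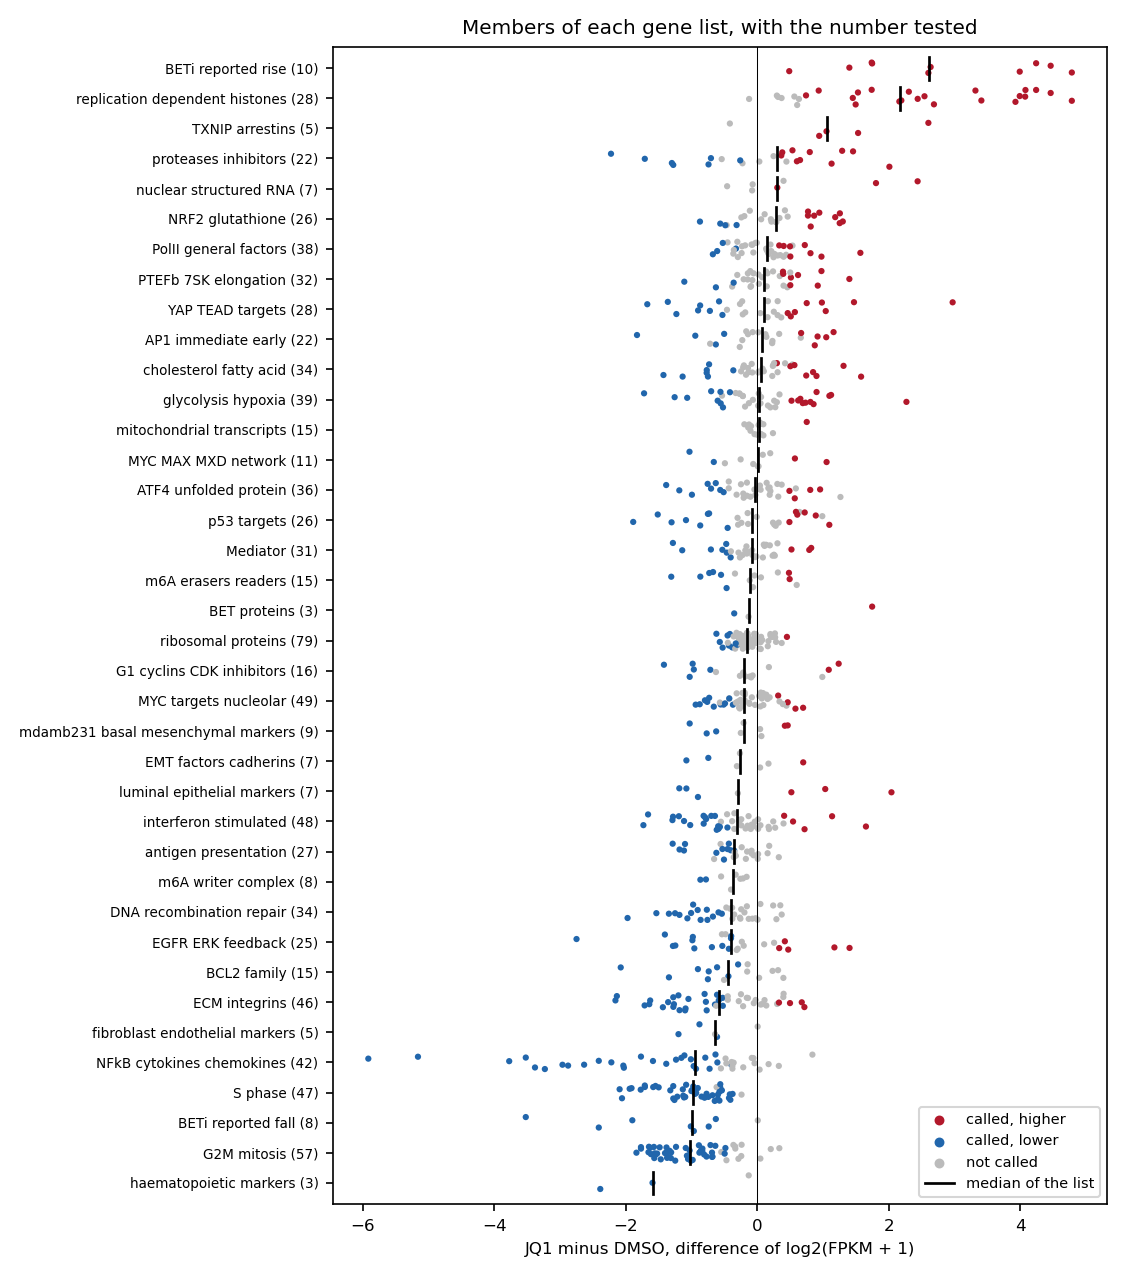
Change with JQ1 of the tested members of each gene list, as the JQ1 minus DMSO difference of log2(FPKM + 1), with red for a rise, blue for a fall, grey for no call and a black bar at the median of the list. Lists are ordered by median: reported BET inhibitor rises (2.62) and histones (2.18) lie at the top, and S phase (-0.97), G2/M (-1.03) and cytokine genes (-0.95) near the bottom.

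Genes of the cell surface and matrix mostly fell. Calls took 63.0% of the matrix and integrin genes and 77.3% of the proteases and inhibitors, beside 35.1% over all genes. Of 46 matrix and integrin genes 4 rose and 25 fell (median -0.58; 2 and 19 to 20 with 1 library left out). Of the 38 at 1 FPKM or more in all 4 libraries, 4 rose and 20 fell. TGM2, a transglutaminase that crosslinks matrix proteins, was at 26.5 and 24.3 FPKM with JQ1 and 115 and 115 with DMSO (log2 fold change -2.14, SE 0.10, adjusted p = 2.7e-05). LOXL4, a lysyl oxidase, was at 5.67 and 6.11 with JQ1 and 29.7 and 29.8 with DMSO (log2 fold change -2.16, SE 0.16, adjusted p = 0.00015). The glycoprotein gene TNC was 3.25-fold lower (adjusted p = 9.7e-05), and the fibronectin receptor subunit ITGA5 2.34-fold lower (0.00013). Of 22 proteases and inhibitors 10 rose and 7 fell (6 to 7 and 4 to 6 with 1 library left out). The 2 plasminogen activators moved in opposite directions: PLAU, urokinase, was at 34.8 and 36.8 with JQ1 and 169.6 and 173 with DMSO (log2 fold change -2.23, SE 0.09, adjusted p = 1.4e-05), and PLAT, the tissue type, at 644 and 691 with JQ1 and 243 and 242 with DMSO (log2 fold change 1.46, SE 0.08, adjusted p = 6.4e-05). The collagenase MMP1 was at 1293 and 1287 with JQ1 and 327 and 313 with DMSO (log2 fold change 2.01, SE 0.08, adjusted p = 1.6e-05), and the inhibitor TIMP3 at 32 and 30.7 with JQ1 and 104 and 106 with DMSO (log2 fold change -1.71, SE 0.08, adjusted p = 3.2e-05).

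Of 28 YAP and TEAD targets 8 rose and 8 fell (57.1% called, beside 35.1% over all genes). The matricellular gene CCN2 was at 548 and 546 FPKM with JQ1 and 69.6 and 68.2 with DMSO, 7.94-fold higher (log2 fold change 2.97, SE 0.08, adjusted p = 1.9e-06). CCN1 was at 452 and 462 with JQ1 and 230.5 and 231 with DMSO (log2 fold change 0.98, SE 0.09, adjusted p = 0.00033) and the ankyrin repeat gene ANKRD1 at 143 and 142 with JQ1 and 50.0 and 51.4 with DMSO (log2 fold change 1.47, SE 0.09, adjusted p = 9.5e-05), whereas FOXF2, a forkhead factor, was 4.63-fold lower (adjusted p = 0.00031). Of 25 EGFR ligand and ERK feedback genes 5 rose and 12 fell (2 to 3 and 9 with 1 library left out). ETV4, an ETS factor downstream of ERK, was at 4.35 and 4.15 with JQ1 and 32.2 and 36.5 with DMSO (log2 fold change -2.75, SE 0.10, adjusted p = 1.3e-05), and the ligand gene HBEGF was 2.79-fold lower (adjusted p = 9.5e-05). The phosphatases DUSP1 and DUSP6, which switch MAP kinases off, rose 2.76-fold and 2.28-fold (adjusted p = 0.00015 and 0.00017). Calls took 68% of the EGFR ligand and ERK feedback genes, beside 35.1% over all genes. In the AP-1 and immediate early list the share was 40.9%, closer to that over all genes. Of 22 AP-1 and immediate early genes 5 rose and 4 fell (3 to 5 and 2 to 3 with 1 library left out): JUND rose 2.25-fold (adjusted p = 0.00051) and EGR1 2.06-fold (0.00084), while BATF3 was 5.13-fold lower (0.00094) and IER3 1.93-fold lower (0.00035).

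Markers of cell identity did not move as 1 body. Summed over the list, luminal markers stood at 1657 and 1666 FPKM with JQ1 and 653 and 664 with DMSO, and blood cell markers at 26.7 and 29.5 with JQ1 and 53.3 and 61.3 with DMSO; the part of other cell types in these results was not tested. Of 9 basal and mesenchymal markers of the line 2 rose and 3 fell (1 and 3 with 1 library left out). The adhesion receptor gene CD44 was at 60.9 and 73.5 FPKM with JQ1 and 127 and 149 with DMSO (log2 fold change -1.03, SE 0.16, adjusted p = 0.0029), MSN and CAV1 were 1.55-fold and 1.72-fold lower (adjusted p = 0.0014 and 0.0055), and the receptor kinase gene AXL 1.38-fold higher (0.0056). Of 7 luminal markers 3 rose and 3 fell. The simple keratins KRT19 (989.9 and 973 FPKM with JQ1, 228 and 248 with DMSO; adjusted p = 2.1e-05) and KRT8 (2.05-fold, adjusted p = 0.00059) rose, while GATA3 (2.42-fold) and XBP1 (2.33-fold) fell (adjusted p = 0.0027 and 0.00061). Among 7 EMT factors and cadherins 1 rose and 2 fell, and none of these calls held with each library left out: EPCAM was 3.09-fold lower (adjusted p = 0.012, lost without JQ1 library a or DMSO replicate 1), ZEB2 2.15-fold lower (0.031, lost without DMSO replicate 1 or either JQ1 library) and SNAI2 1.70-fold higher (0.021, lost without any), with adjusted p up to 0.073, 0.16 and 0.11. Calls took 42.9% of the EMT factors and cadherins, beside 35.1% over all genes. Of 3 blood cell markers tested LAPTM5, a lysosomal protein gene, was at 4.08 and 4.45 with JQ1 and 27.4 and 25.7 with DMSO (log2 fold change -2.39, SE 0.13, adjusted p = 5.1e-05) and CD14 at 0.384 and 0.994 with JQ1 and 3.98 and 4.05 with DMSO (log2 fold change -1.59, SE 0.18, adjusted p = 0.00091). Of 5 fibroblast and endothelial markers 3 fell, all of them low: ACTA2 was at 1.21 and 1.66 with JQ1 and 3.63 and 5.69 with DMSO (adjusted p = 0.011), COL1A1 at 2.1 and 1.78 with JQ1 and 3.53 and 3.44 with DMSO (0.012) and PECAM1 at 0.141 and 0.0774 with JQ1 and 0.874 and 1.22 with DMSO (0.0081). Calls were lost without JQ1 library a or DMSO replicate 2 for ACTA2 (adjusted p up to 0.073), without JQ1 library b or either DMSO replicate for COL1A1 (up to 0.075), and without DMSO replicate 2, where it was under the filter, for PECAM1.

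Of 26 NRF2 and glutathione genes 9 rose and 4 fell (8 to 9 and 2 with 1 library left out). FTL, the ferritin light chain gene, was at 3285 and 3260.3 FPKM with JQ1 and 1332 and 1326 with DMSO (log2 fold change 1.3, SE 0.08, adjusted p = 9.7e-05). The thioredoxin reductase gene TXNRD1 was at 305 and 309 with JQ1 and 129 and 127 with DMSO (log2 fold change 1.26, SE 0.08, adjusted p = 0.0001), and the autophagy receptor gene SQSTM1 and the peroxiredoxin gene PRDX1 were 2.28-fold and 1.82-fold higher (adjusted p = 0.00028 and 0.0004). Of 5 arrestins of the TXNIP family 4 rose and none fell (median 1.05; 1 fell without the libraries labelled I-BET151): besides TXNIP, these were ARRDC4 (3.83-fold, adjusted p = 0.00035), ARRDC1 (2.14-fold, 0.00074) and ARRDC3 (2.09-fold, 0.0014). The 39 genes of glycolysis and the hypoxia response gave 11 rises and 9 falls. That is 51.3% called, beside 50% of the NRF2 and glutathione genes and 35.1% over all genes. ADM, the gene of the vessel-relaxing peptide adrenomedullin, was at 78.4 and 77.4 with JQ1 and 15.8 and 15 with DMSO (log2 fold change 2.27, SE 0.09, adjusted p = 1.6e-05). The collagen hydroxylase gene P4HA1 and the stress gene NDRG1 rose 2.22-fold and 1.82-fold (adjusted p = 0.00033 and 0.001), and PFKP, a phosphofructokinase, was 1.63-fold lower (0.00091).

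The remaining lists went both ways. Calls took 44.1% of the cholesterol and fatty acid genes and 53.8% of the p53 targets, beside 35.1% over all genes. Of 34 cholesterol and fatty acid genes 8 rose and 7 fell (4 to 5 and 5 to 6 with 1 library left out). The sterol reductase gene TM7SF2 and the desaturase gene SC5D were 3.14-fold and 1.98-fold higher (adjusted p = 0.00046 and 0.0026), and the fatty acid desaturase gene FADS1 2.82-fold lower (0.0028). Of 36 ATF4 and unfolded protein genes 4 rose and 8 fell (33.3% called, near the 35.1% over all genes; 1 to 3 and 4 to 5 with 1 library left out, and 8 higher without the libraries labelled I-BET151), with the arginine transporter gene SLC7A1 2.08-fold, the pseudokinase gene TRIB3 2.95-fold and the serine enzyme gene SHMT2 1.64-fold lower (adjusted p = 0.00041, 0.0013 and 0.0029). Of 26 p53 targets 6 rose and 8 fell (2 to 4 and 3 to 6 with 1 library left out): AEN and the repair gene DDB2 were 2.73-fold and 3.43-fold lower (adjusted p = 0.00029 and 0.00036), RRM2B and TP53I3 2.32-fold and 1.92-fold higher (0.00076 and 0.0027). Of 15 BCL2 family genes 8 fell and none rose, but 2 to 4 fell and 0 to 1 rose with 1 library left out. BCL2A1, a survival factor, was at 0.734 and 0.616 FPKM with JQ1 and 6.91 and 5.32 with DMSO (log2 fold change -2.08, SE 0.14, adjusted p = 0.00013), and the pro-death gene BID was 2.65-fold lower (adjusted p = 0.00094). BCL2 was at 0.339 and 0.419 with JQ1 and 1.33 and 1.28 with DMSO (adjusted p = 0.0083). The pro-death gene BAX was at 67.9 and 61.4 with JQ1 and 94.3 and 127 with DMSO (adjusted p = 0.02). The BCL2 call was lost without JQ1 library a, and without either DMSO replicate BCL2 was under the filter. The BAX call was lost without either JQ1 library or DMSO replicate 2.

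JQ1 was next set directly against the other compounds at the same dose and time, in 2 pairs. Between JQ1 and Molib no gene passed (0% of 14936), while 1227 genes (8.22%) had an unadjusted p under 0.05, and the smallest adjusted p was 0.16. This does not show that the compounds act alike, so intervals are given: the 95% interval of the JQ1 minus Molib difference lay within 2-fold for 13868 genes (92.8%), with a median half-width of 0.36 on the log2 scale. Among the 5238 genes called with JQ1 it did so for 5082. HEXIM1 was at 73.8 and 76.7 FPKM with JQ1 and 72.9 and 69.6 with Molib, a difference of 0.08 (95% interval -0.36 to 0.52). BRD2 was at 224 and 215 with JQ1 and 175 and 179 with Molib, a difference of 0.31 (0.12 to 0.50, adjusted p = 0.52). CXCL8 was at 26.2 and 25.5 with JQ1 and 24.0 and 23.8 with Molib (0.11, -0.12 to 0.34), and CLU, the rise that differed most among these, at 57.8 and 60.6 with JQ1 and 96.9 and 79.5 with Molib (-0.56, -0.98 to -0.14). Against DMSO, which the comparisons share, Molib changed 35.3% of genes, with 2217 higher (14.8%) and 3056 lower (20.5%).

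JQ1 and the libraries labelled I-BET151 differed in 6663 genes (44.6%), 2995 higher and 3668 lower with JQ1. HEXIM1 was at 73.8 and 76.7 FPKM with JQ1 and 10.3 and 6.37 under the I-BET151 label (JQ1 minus I-BET151 3.06, adjusted p = 4e-05). TUBB3 (196 and 252 with JQ1, 11.7 and 13 labelled I-BET151), PEG10 (33.6 and 32.9 with JQ1 and 2.08 and 2.24 labelled I-BET151) and the microRNA gene MIR3665 (13.2 and 11.6 with JQ1 and 1.22 and 0.204 labelled I-BET151) were, with HEXIM1, the highest of JQ1 over I-BET151 (adjusted p = 4.7e-05, 3.1e-05 and 0.00022). Against DMSO, MIR3665 was called higher with JQ1 (adjusted p = 0.038) but lost without any 1 of the 4 libraries (up to 0.17). The deepest were CSF2 (1.05 and 1.13 with JQ1, 321 and 279 labelled I-BET151), CSF3 (1.03 and 1.08 with JQ1 and 162 and 143 labelled I-BET151), OASL (1.37 and 1.45 with JQ1 and 121 and 108 labelled I-BET151) and the keratin-associated gene KRTAP2-3 (0.138 and 0.235 with JQ1 and 43.5 and 42.9 labelled I-BET151). Most cytokine genes went the other way in these libraries: of the 42 in the list 32 were called higher and none lower against DMSO (13.9% and 14.1% of all genes). CXCL3 was an exception, at 4.38 and 4.10 with JQ1, 40.0 and 35.8 labelled I-BET151 and 49.8 and 46.8 with DMSO. Of 28 histone genes 14 were called higher than DMSO and none lower (median 0.59, beside 2.18 with JQ1), as H2BC5 at 234 and 226 with JQ1, 87.7 and 92.1 labelled I-BET151 and 8.81 and 10.2 with DMSO. Of the cell cycle genes, 37 of 47 in S phase (median -0.59, beside -0.97 with JQ1) and 53 of 57 in mitosis (median -1.09, beside -1.03) were called lower than DMSO.

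The second JQ1 experiment, with its own controls, gave no calls. Its 4 libraries correlated at 0.68 to 0.78, the CTRL pair at 0.75. No gene of 13261 passed with limma (0%), and 2048 (15.4%) had an unadjusted p under 0.05. The sign could be compared for 12604 genes. Of 1921 that rose with JQ1 against DMSO, 64.8% were higher with JQ1 there too, against 43.6% of all, and of 2694 that fell 70.6% were lower, against 50.2% of all. IL6 was at 2.99 and 0.485 FPKM with JQ1 and 62.0 and 64.6 in CTRL, CXCL8 at 13.7 and 0.382 with JQ1 and 63.0 and 56.0 in CTRL, TPX2 at 18 and 16 with JQ1 and 73.4 and 95 in CTRL, and H2AC6 at 158 and 225 with JQ1 and 14.7 and 26.2 in CTRL. HEXIM1 was at 85.3 and 77.0 with JQ1 and 63.4 and 52.0 in CTRL, higher in each JQ1 library. H2BC5 was at 619 and 738 with JQ1 and 838 and 549 in CTRL, so its groups overlapped. Over the 25 histone genes of the list tested there the median JQ1 minus CTRL value was -0.93, opposite in sign to the 2.18 against DMSO. Levels of the 2 experiments come from tables normalized separately.

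Last, JQ1 was set beside the knockdown of METTL3, since the title joins BET inhibition and the writer complex. METTL3 was at 4.39 and 4.80 FPKM in shM3 cells and 20.1 and 23.8 in B5 cells, a shM3 minus B5 difference of -2.03 on the log2 scale (adjusted p = 3.4e-05), beside the JQ1 minus DMSO difference of -0.40. The cells labelled shM3 had been infected with a lentivirus and carry a hairpin. METTL3 was added back in other groups, which were not compared here but entered the same fit. With shM3 and B5 fitted alone there were 4592 calls, against 5534 with all libraries in the fit. In B5 replicate 2 a single gene took most of the FPKM sum. In shM3 cells 2620 of 14638 genes rose (17.9%) and 2914 fell (19.9%). Of the 2917 genes that fell with JQ1 and were tested in both tables, 1012 fell in shM3 cells (34.7%, against 19.8% of all 13908), and these were 36.8% of the knockdown's falls. Of the 1939 that rose with JQ1, 425 rose there (21.9%, against 18.3% of all), or 16.7% of the knockdown's rises. Among the cell cycle genes, 41 of 47 S phase and 53 of 57 mitotic genes fell in shM3 cells, as TPX2 at 33.8 and 33.7 FPKM in shM3 and 96.9 and 95.3 in B5. Of 24 histone genes tested there, 16 rose and 1 fell, with H2BC4 at 21.9 and 19.3 in shM3 and 2.69 and 2.68 in B5. SLCO4A1 fell in both, to 11 and 10.1 in shM3 against 134 and 133 in B5. The cytokine list showed no such direction, with 11 of 40 genes higher and 10 lower in shM3. CSF3 stood at 2.73 and 3.15 FPKM in B5, beside 127 and 119.9 with DMSO, whose values were normalized separately. HEXIM1 was at 47.2 and 44.7 in shM3 and 41.5 and 44.2 in B5 (adjusted p = 0.46).

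**Figure D5:**
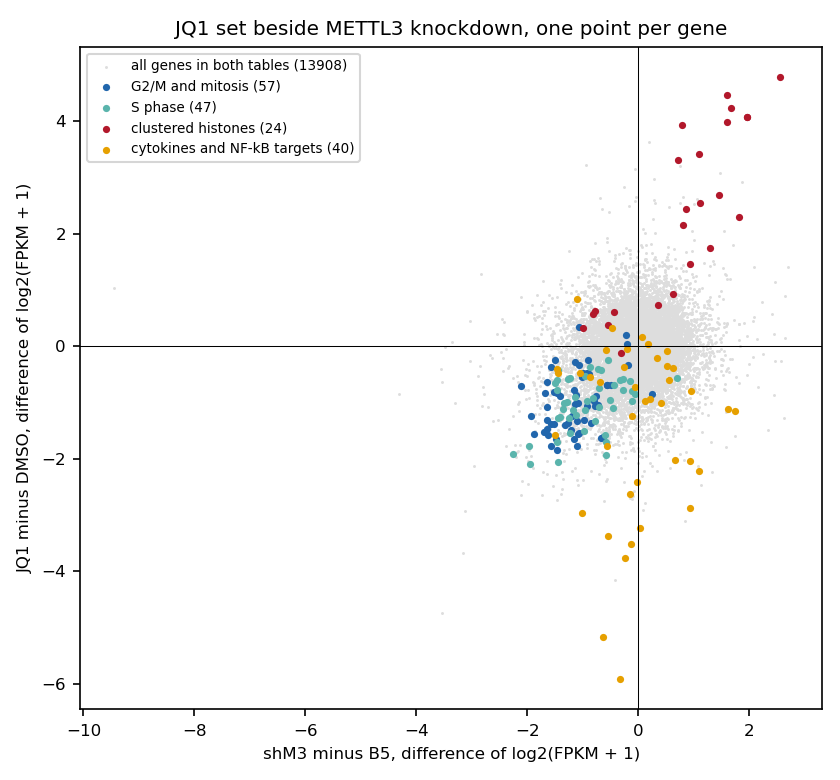
JQ1 minus DMSO against shM3 minus B5, both as differences of log2(FPKM + 1), for the 13908 genes tested in both tables (grey), with G2/M (57), S phase (47), clustered histone (24) and cytokine genes (40) in colour. G2/M and S phase genes lie mostly below 0 on both axes and most histone genes above 0 on both, while cytokine genes spread along the JQ1 axis.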

How the data were processed

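RNA-seq libraries of MDA-MB-231 cells were measured as FPKM tables, which the authors deposited already normalized; the unit of the DMSO table was inferred from its values, which have the format of the table named FPKM, and no counts are given. The submitters' processing notes name Cufflinks 2.2.1, HISAT2 2.1.0, CASAVA 1.4 and hg38 without their roles, options or strand setting. Per the labels' protocols there were 2 kinds of library preparation, one with rRNA depletion and poly(A) fractions, and samples are not assigned to them. In each table, the genes reaching 1 FPKM in at least 2 libraries were tested on log2(FPKM + 1) with limma 3.58.1 (R 4.3.3; lmFit, contrasts, eBayes with a trend), all 8 libraries of the DMSO table in 1 fit, with Benjamini-Hochberg adjustment over all genes tested. Tables were normalized separately and tested only within themselves. Summaries used Python 3.11.15 with pandas 2.3.3 and matplotlib 3.10.9, and scripts were tested on simulated data. Gene positions are from GENCODE 29 by gene ID (14849 of 14936 matched) and promoters from RefSeq GRCh38.p14 (10290 matched by symbol or gene ID), searched on both strands for the motifs spelled out beside their matches and for the E-box CACGTG.

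Genes named were HEXIM1, BRD2, BRD3, MYC, METTL3, METTL14 and WTAP, the 12 highest and 12 deepest changes at a mean of 5 FPKM or more with groups apart, up to 4 called members with the smallest adjusted p in each of 38 lists, and the 4 highest and 4 deepest against each other compound. CDK9, H1-2, H1-4, H2AC17, H4C3, LGALS1, MCM4, POLE, NFKB1, NFKBIA, RELA, RN7SK, SERPINI1, VIM and ZCCHC24 were chosen after their values were seen. The genes and lists were chosen with earlier results of these data known. Alternatives were pseudocounts of 0.1 and 5, no filter or one of 5 FPKM, median scaling, TMM factors, the contrast fitted alone, no trend, a replicate block, each library left out and, chosen after seeing the data, the libraries labelled I-BET151 left out. Some items are not reported here.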

Additional observations from a re-analysis of the deposited data

Results flagged for a closer look

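In 9 named genes that changed with JQ1 against DMSO, the second JQ1 experiment went the opposite way with groups that did not overlap. The difference between the experiments was not tested. Among all genes tested in both, this held for 160 of the 1921 that rose (8.33%) and 136 of the 2694 that fell (5.05%). Such genes were thus not confined to the named ones. Histone genes H2AC18, H2BC21 and H4C8, which rose against DMSO, had JQ1 minus CTRL values of -0.58, -1.19 and -0.64 on the log2 scale; H2BC21 stood at 67.0 and 43.6 FPKM with JQ1 and 135 and 116 in CTRL, above the 26.8 and 26.4 FPKM of the first experiment's JQ1 libraries. ANKRD1, PLAT and NDRG1 also rose against DMSO and had values of -0.31, -1.22 and -1.25 against CTRL; PLAT stood at 137 and 193 FPKM with JQ1 and 347 and 414 in CTRL, and NDRG1 at 59.7 and 32.7 with JQ1 and 135 and 83.4 in CTRL. GAR1, RPS14 and RPL35 fell against DMSO and had values of 2.31, 1.06 and 0.40 against CTRL; GAR1 stood at 20.5 and 11.8 FPKM with JQ1 and 0 and 10.3 in CTRL, where 1 library is listed at 0, and RPS14 at 90.3 and 109.5 with JQ1 and 44.1 and 50.5 in CTRL. None of these genes passed the threshold against CTRL.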

How the results depend on the processing

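No paired analysis was possible because the JQ1 columns carry no replicate number. The other numbers share only a label: deviations of same-numbered libraries correlated at -0.041 for Molib, -0.12 for I-BET151, 0.0065 for shM3 and -0.032 for the second JQ1 experiment against their controls. A replicate block gave 3996 calls for Molib, 2724 for I-BET151 (2980 with the numbers crossed) and 5282 for shM3. Under the alternatives other than leaving out a library, calls of JQ1 against DMSO numbered 4032 to 6199, within 1.5 times 5238. With median scaling the split was 2507 higher and 2762 lower. With 1 library left out, calls numbered 2854 to 3047 for JQ1 against DMSO, 0 to 1 for JQ1 against Molib, 3056 to 3250 for Molib, 1940 to 4333 for I-BET151, 3654 to 4521 for shM3 and 0 to 492 for the second JQ1 experiment, the highest without CTRL replicate 2; fewer samples enter these fits. Fitted alone, I-BET151 gave 2461 calls and JQ1 against Molib 1. The second experiment gave 6 calls with a pseudocount of 0.1 and 138 with no trend; the cause was not tested. MYC ranged from -0.32 without JQ1 library a to 0.33 without JQ1 library b, and was -0.17 without DMSO replicate 2. Of 2038 values for 158 results on named genes, 1965 kept their direction and side of the threshold, 69 lost the call, 2 gained it (METTL3) and 2 turned round (MYC). Of 986 counts over lists 829 stayed within 1.5 times and 157 moved beyond. Depth is unknown, and 2 libraries a group limit the precision.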

Other observations

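Metallothionein genes encode small metal-binding proteins. Besides MT1X, the members MT1E, MT2A and MT1A were higher with JQ1. These members were picked with their levels already known, and no count is given here for the rest of the family. Their rise therefore does not show how metallothionein genes moved as a group. MT2A was at 8697 and 8692 FPKM with JQ1 and 3726 and 3732 with DMSO (log2 fold change 1.22, SE 0.10, adjusted p = 0.00027). MT1E was at 377 and 368 FPKM with JQ1 and 157 and 147 with DMSO (log2 fold change 1.29, SE 0.12, adjusted p = 0.00038), and MT1A at 57.6 and 57.3 with JQ1 and 8.38 and 8.26 with DMSO (log2 fold change 2.65, SE 0.10, adjusted p = 1.3e-05). Replicates differed by under 10% in each gene. These genes are near-identical copies, so the split of reads between them is uncertain. MT1X was at 1981 and 1967 FPKM with JQ1, 1894 and 1915 with Molib, 750.3 and 813 under the I-BET151 label and 162 and 154 with DMSO.

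The genes with the smallest p between JQ1 and Molib, none of which passed, were TGFBR1, a TGF-beta receptor (7.09 and 6.81 FPKM with JQ1, 16.7 and 16.2 with Molib), DUSP3, a phosphatase (6.78 and 6.30 with JQ1 and 15.7 and 17.8 with Molib), MMACHC, an enzyme of cobalamin metabolism (1.23 and 1.24 with JQ1 and 12.2 and 12 with Molib), SERTAD3 (4.30 and 4.42 with JQ1 and 10.3 and 11.6 with Molib) and ARMT1 (14.1 and 13.3 with JQ1 and 6.45 and 6.99 with Molib), each at an adjusted p of 0.16. They were chosen after their values were seen.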
